A study of Mus musculus with 2 samples.

Results

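Cyclic AMP carries the signal of many hormones and mediators inside macrophages, and 10 genes that make, degrade or answer to it were read in RAW264.7 cells treated with vehicle or with IR-61. They are the cyclic AMP-specific phosphodiesterase genes *Pde4a*, *Pde4b*, *Pde4c*, *Pde4d*, *Pde7a* and *Pde8a*, the phosphodiesterase genes *Pde1b* and *Pde3b* of dual substrate, the adenylyl cyclase gene *Adcy7* and the transcription factor gene *Crem*. The 10 genes were chosen by name with the log2 differences of these same arrays already known, so their differences are a description and no test was made of them. All 10 had a probe, out of 20655 genes named on the arrays, and all 10 were among the 16885 genes whose probe lay well above background on both arrays.

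RAW264.7 is a macrophage-like line from an ascites tumour that Abelson murine leukemia virus induced in an adult male BALB/c mouse. IR-61 is a near-infrared heptamethine cyanine dye, a lipophilic cation taken up by mitochondria. The cells were held for 24 h in serum-containing medium with the vehicle control or with 10 μM IR-61, and Cy3-labelled total RNA was hybridised to single-colour Agilent arrays. There was 1 culture and 1 array per condition, so the effect of IR-61 and the difference between any pair of cultures or arrays cannot be told apart, and no p-value can be given. RNA of a whole culture was read, in which fewer cells of a kind and less RNA per cell cannot be told apart either.

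Cells make cyclic AMP from ATP through adenylyl cyclases, which receptors stimulate through Gs and inhibit through Gi, and phosphodiesterases hydrolyse it to AMP. The nucleotide acts through protein kinase A, through the exchange factor Epac and, in the nucleus, through CREB and CREM at cyclic AMP response elements. In macrophages a rise in cyclic AMP is known for restraining the output of tumour necrosis factor, and inhibitors of the PDE4 enzymes are used as anti-inflammatory drugs.

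Each value below is the signal of a probe after the background correction and surface-trend correction of the scanner software, in arbitrary units. A log2 difference is IR-61 minus vehicle after subtraction of the 75th percentile of each array, and a gene with several probes takes its value from the brightest. A gene was called lower or higher at a difference of 2-fold or more. The signals of the IR-61 array were higher as a whole, with a 75th percentile of 10.79 against 10.30 on the log2 scale, so raw signals of both arrays must not be set against each other directly. As a measure of technical error, 399 probes printed 10 times on each array gave an SD between spots of at most 0.352 log2 units for dim probes (log2 signal under 6), 0.180 for middle probes and 0.070 for bright ones (log2 signal of 10 or more) on either array. The error of a difference, called the expected SD here, combines that of both arrays at the brightness of the probe. This error covers the spots of a single array and not the spread between cultures.

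The identity of the cells was read from marker genes. All 7 macrophage markers with a probe were well above background on both arrays, with differences between −0.83 for *Spi1* and 1.03 for *Adgre1*. Their summed signal was 192640 in vehicle and 369032 in IR-61 before scaling, and such raw sums are not comparable between the arrays. All 4 fibroblast markers were also well above background, with signals of 860 to 27148 in vehicle and 1515 to 58670 in IR-61. Their summed signal was 59579 and 104499, likewise before scaling, and their differences ran from −0.09 for *Dcn* to 0.62 for *Col1a1*. Of the T cell markers 3 of 4 were above background, of the B cell markers 4 of 4, of the epithelial markers 2 of 4 and of the endothelial markers 2 of 3. *Cd3g*, *Epcam*, *Cdh1* and *Tek* were not. Of all probes, 77.6% were well above background in vehicle and 81.2% in IR-61, so such counts do not by themselves tell a cell type. In vehicle, before scaling, the summed signals were 2090 for T cell and 618 for B cell markers. They were 262 for epithelial and 2522 for endothelial markers. The B cell marker *Ms4a1* differed by −1.46. Their part in the differences of the 10 genes was not tested.

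Among the 10 genes, *Pde4b* was lower by 2-fold or more and none was higher. Over all measured genes 1.39% were lower and 1.99% higher by the same limit, 235 and 336 genes, although scaling each array by its median turned this balance to 295 lower and 249 higher. The other 9 genes fell short of the limit and lay between −0.82 and 0.70. The median of the 10 was −0.07, against 0.10 over all measured genes, whose SD was 0.44. Of their 17 probes, 16 passed the background limit on both arrays, and 1 did so on neither, probe 2 of *Pde4b*.

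**Figure D1:**
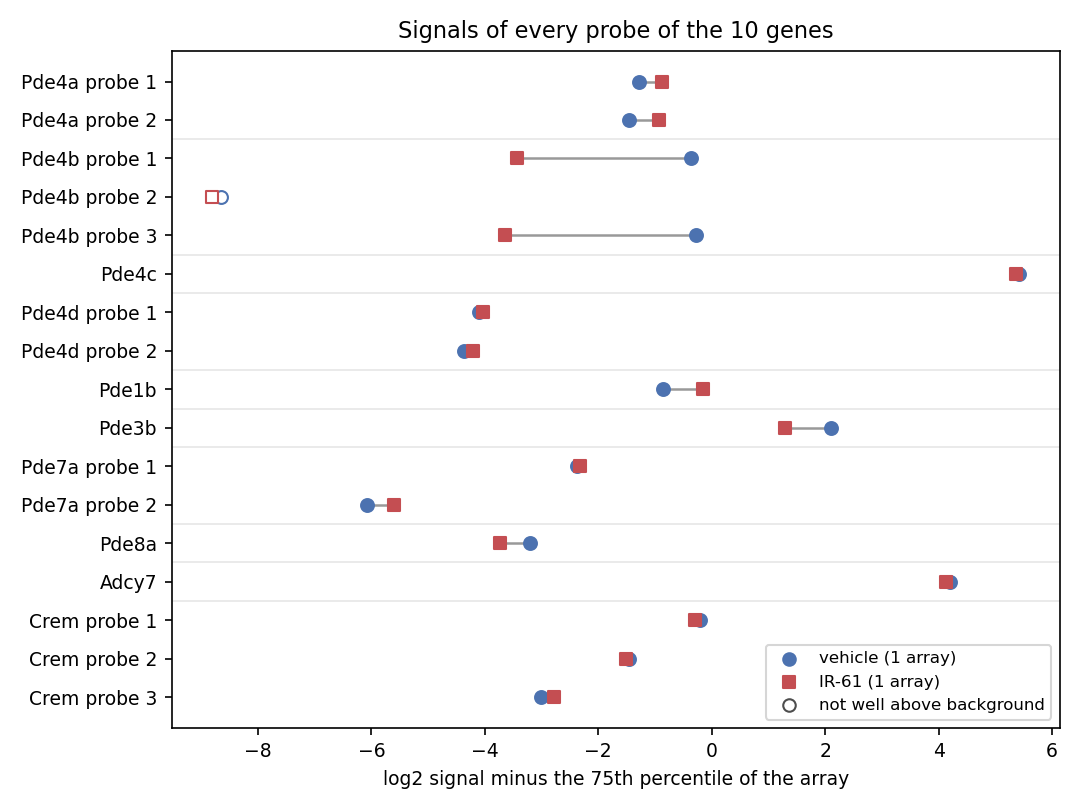
Signal of every probe of the 10 genes on the vehicle array (blue circles) and on the IR-61 array (red squares), as log2 signal minus the 75th percentile of the array, with 1 array per condition. Open symbols mark a probe that did not clear the background. The lines of *Pde4b* probes 1 and 3 span −3.07 and −3.37, while every other probe above background lies between −0.82 and 0.70. Levels of different probes are not comparable, so only the length of a line is to be read.

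*Pde4b*, on chromosome 4, encodes the PDE4 enzyme that lipopolysaccharide induces in mouse macrophages, where it is needed for full production of tumour necrosis factor. Its first probe gave a signal of 986 in vehicle and 164 in IR-61, and probe 3 gave 1042 and 141. Both were therefore lower in IR-61 even before scaling. After scaling the differences were −3.07 and −3.37, or 8.41-fold and 10.3-fold, which were 13.3 and 20.8 times the expected SD. That SD was 0.231 for probe 1 and 0.162 for probe 3. Their vehicle signals lay just either side of the log2 limit of 10 between middle and bright probes. The multiples are therefore not to be set against each other. Probe 2 read 3.13 in vehicle and 3.95 in IR-61, below the background limit on both arrays, and gave no fold. All 3 probes are assigned to the same RefSeq transcript. Probe sequences were not at hand, so whether the pair that fell overlap was not checked. In the order of all 16885 measured genes from the largest fall, *Pde4b* stood at place 7.

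The gene has several starts, and whether its probes tell which of them was in use was not checked. The 250 bases before each of its 4 start sites in the RefSeq table (build GRCm38.p6) are shown because *Pde4b* is the gene of the set that moved. Capitals mark TGACG, the core of the cyclic AMP response element, on either strand.

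Pde4b window 1, chr4:102421305-102421554, + strand: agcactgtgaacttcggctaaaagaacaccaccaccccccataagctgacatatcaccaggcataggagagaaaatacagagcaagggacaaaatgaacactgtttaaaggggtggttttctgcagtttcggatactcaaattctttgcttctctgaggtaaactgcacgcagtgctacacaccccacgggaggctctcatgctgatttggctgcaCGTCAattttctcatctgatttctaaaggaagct

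Pde4b window 2, chr4:102569810-102570059, + strand: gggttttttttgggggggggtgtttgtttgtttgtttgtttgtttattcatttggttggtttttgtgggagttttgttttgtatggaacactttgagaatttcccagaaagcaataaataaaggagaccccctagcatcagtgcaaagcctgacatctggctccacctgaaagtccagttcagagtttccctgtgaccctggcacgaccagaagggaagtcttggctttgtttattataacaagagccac

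Pde4b window 3, chr4:102587308-102587557, + strand: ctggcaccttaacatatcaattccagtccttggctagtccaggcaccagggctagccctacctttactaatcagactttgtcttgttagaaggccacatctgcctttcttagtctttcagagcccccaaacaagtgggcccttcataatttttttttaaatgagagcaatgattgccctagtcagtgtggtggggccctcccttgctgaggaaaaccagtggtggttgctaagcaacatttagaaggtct

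Pde4b window 4, chr4:102589593-102589842, + strand: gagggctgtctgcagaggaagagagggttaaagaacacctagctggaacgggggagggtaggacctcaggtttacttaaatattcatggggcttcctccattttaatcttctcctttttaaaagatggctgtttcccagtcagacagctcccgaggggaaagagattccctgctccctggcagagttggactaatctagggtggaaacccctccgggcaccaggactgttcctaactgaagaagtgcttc

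The first window holds the core as CGTCA, the reverse complement of TGACG, with its first base 34 bases before the start, and the other 3 windows do not hold it. Their GC content was 46%, 43.2%, 46.8% and 50.8%, against a median of 52.4% over all windows of the table, and they held 5, 1, 0 and 3 CpG. On both strands none of the 4 contained the full element TGACGTCA, which includes the core, nor GGG and TTTCC with any 2 bases between them, a form of the NF-κB element, nor TGANTCA, the AP-1 element with any base at its centre. Of all 32851 windows of this length, 17.8% held the core, 1.55% the full element, 1.41% the NF-κB form and 6.75% the AP-1 form. A match of letters is a description and not a binding site, and a missing match says only that the letters are not in these windows.

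The other PDE4 genes did not share the difference. *Pde4a*, on chromosome 9, encodes a PDE4 enzyme found in brain and immune cells. Its probes read 521 and 458 in vehicle and 966 and 928 in IR-61, which were 0.40 and 0.53 after scaling, 1.74 and 2.29 times the expected SD. Both probes were thus slightly higher in IR-61, and 80.2% of measured genes had a lower difference than *Pde4a*.

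*Pde4d*, on chromosome 13, whose enzyme regulates cyclic AMP near ryanodine receptors in the heart, had a pair of dim probes. They read 73.6 and 61.5 in vehicle and 108 and 95.4 in IR-61, or 0.07 and 0.14 after scaling, and both differences were below 1 expected SD. *Pde4c*, on chromosome 8, encodes the least studied enzyme of the subfamily, and its probe read 54292 in vehicle and 72843 in IR-61. This is a difference of −0.06, or 0.68 of the expected SD. The value rests on 1 probe, and without its sequence whether it reads *Pde4c* alone was not checked. Thus 3 of the 4 PDE4 genes lay between −0.06 and 0.40 while *Pde4b* lay at −3.07.

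The phosphodiesterases of dual substrate differed in opposite directions, both short of 2-fold. *Pde1b*, on chromosome 15, encodes a calmodulin-stimulated enzyme that appears when monocytes mature to macrophages. Its probe read 698 in vehicle and 1589 in IR-61, a difference of 0.70 or 1.62-fold, which was 3.67 times the expected SD. Of the measured genes 93.8% had a lower difference, and *Pde1b* had the highest of the 10. *Pde3b*, on chromosome 7, encodes the cyclic GMP-inhibited enzyme through which insulin lowers cyclic AMP in adipocytes. Its probe read 5436 in vehicle and 4329 in IR-61, a difference of −0.82 or 1.76-fold lower, and at this brightness the gap was 8.63 times the expected SD. Only 2.40% of measured genes had a lower value. *Pde3b* was the member nearest to the limit of those short of it, and *Pde4b* the only member past it.

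Of the high-affinity enzymes that are specific for cyclic AMP and insensitive to PDE4 inhibitors, *Pde8a* was the lower. *Pde8a*, on chromosome 7, encodes an enzyme that the general inhibitor IBMX does not block, and its probe read 138 in vehicle and 133 in IR-61. The nearly equal raw signals stood against a brighter IR-61 array, so that the scaled difference was −0.54, or 2.34 times the expected SD. *Pde7a*, on chromosome 3, encodes an enzyme abundant in T cells. Its first probe read 245 in vehicle and 356 in IR-61, a difference of 0.05. The second, assigned to another transcript, read 18.8 and 36.5, a difference of 0.47 that was 1.01 times the large SD expected at such a dim signal.

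*Adcy7*, on chromosome 8, encodes the adenylyl cyclase most used by macrophages and other blood cells, which the Gβγ subunits of Gi and the G12/13 pathway can enhance. Its probe read 23287 in vehicle and 30979 in IR-61, a scaled difference of −0.08, or 0.81 of the expected SD. With other scalings it ranged from −0.16 by the median to 0.41 without scaling. *Crem*, on chromosome 18, gives rise to activators of cyclic AMP-responsive genes and, from an internal promoter, to the inducible repressor ICER. Its probes read 1093, 458 and 157 in vehicle and 1448, 619 and 258 in IR-61, or −0.08, −0.05 and 0.23 after scaling, each below 1 expected SD. Probe 3 is assigned to another transcript than the first pair. The table of RefSeq transcripts holds 62 for *Crem*, and whether its probes separate the repressor forms from the activator forms was not checked.

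Across the set, 8 of the 16 probes above background differed by more than 1 expected SD and 8 did not. The share of all measured probes past this SD was not counted, so the counts do not set the 10 genes apart. The 5 genes within 0.1 of 0 were *Pde4c*, *Pde4d*, *Pde7a*, *Adcy7* and *Crem*, and below 0 lay 6 of the 10. Of all measured genes, 32.5% had a lower difference than *Pde4c*, at −0.06, and 44.0% a lower one than *Pde7a*, at 0.05. The share of all measured genes below 0 therefore lay between these percentages. Their share within 0.1 of 0 was not counted. In the order of all genes from the largest fall, *Pde3b* stood at place 407, *Pde8a* at 1111 and *Crem*, *Adcy7* and *Pde4c* at 5201, 5282 and 5489.

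**Figure D2:**
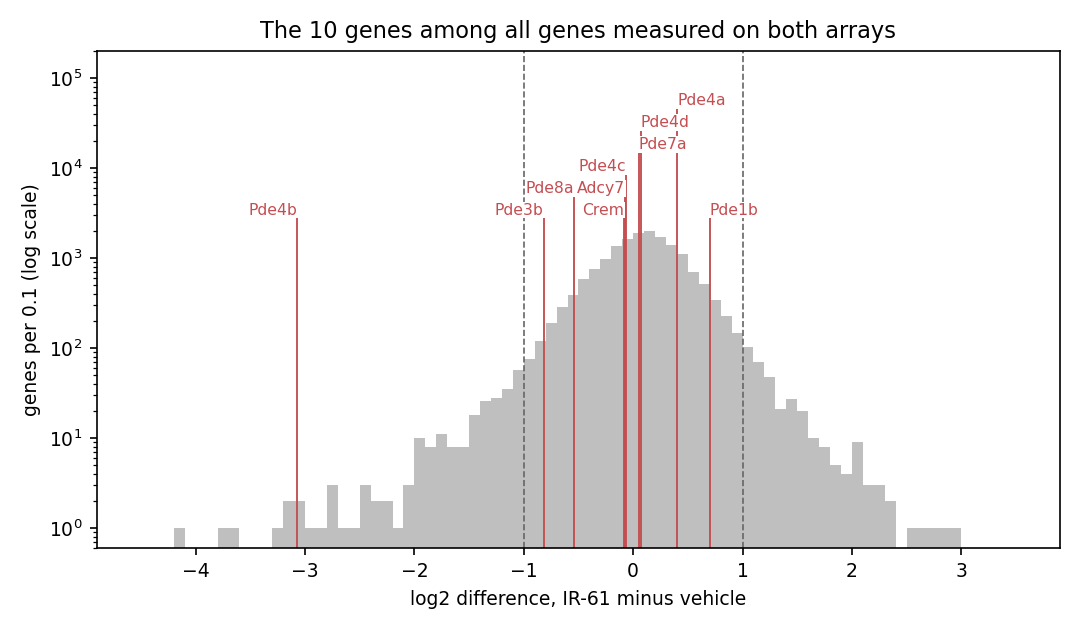
Number of measured genes per 0.1 of log2 difference, IR-61 minus vehicle, on a log scale (grey), with the 10 genes as red lines and the 2-fold limits dashed. *Pde4b* at −3.07 lies in the sparse left tail, and *Pde3b* at −0.82 and *Pde1b* at 0.70 lie on the shoulders inside the limits.

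Of the 16 windows of 250 bases that the table holds for 7 of the 10 genes, 4 contained the core TGACG. Of all 32851 windows 17.8% held it, and the count of 4 was not tested against this share. Besides the first *Pde4b* window, the core lay in the first of *Adcy7*, 28 bases before the start. It also lay in the second of *Pde4a*, 50 bases before the start, and in that of *Pde8a*, 84 bases before it. None of the 16 held the full element or the NF-κB form, and the second window of *Adcy7* held the AP-1 form 24 bases before the start. *Pde4a*, at 0.40, and *Pde8a*, at −0.54, are shown beside *Pde4b* as examples of windows with the same letters. *Adcy7*, which also holds the core, lay at −0.08. Whether the core has a part in any of these differences was not tested.

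Pde4a window 2, chr9:21183851-21184100, + strand: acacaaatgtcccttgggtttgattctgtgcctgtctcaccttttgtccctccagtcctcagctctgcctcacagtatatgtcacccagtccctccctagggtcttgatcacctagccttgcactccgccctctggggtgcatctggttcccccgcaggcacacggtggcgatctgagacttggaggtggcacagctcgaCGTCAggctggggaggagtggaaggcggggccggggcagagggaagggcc

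Pde8a window 1, chr7:81213015-81213264, + strand: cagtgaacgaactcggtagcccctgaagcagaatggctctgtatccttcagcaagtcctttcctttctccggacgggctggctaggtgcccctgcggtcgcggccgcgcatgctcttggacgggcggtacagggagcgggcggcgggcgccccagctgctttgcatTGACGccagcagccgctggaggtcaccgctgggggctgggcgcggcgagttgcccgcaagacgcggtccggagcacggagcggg

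The remainder of the pathway was read in 13 lists of 124 genes, fixed with earlier results of these arrays known. Of these, 107 were measured on both arrays, and 8 were lower and 3 higher by 2-fold or more, each read from its brightest probe. Over all measured genes 1.39% were lower and 1.99% higher, and these shares are to be set beside the counts of each list below. In 8 lists no gene was past the limit. *Odc1*, *Hcar2*, *Akap13* and *Pde6h* counted as short of it although a dimmer probe of each was past it. The genes that fell were receptors and immediate early genes.

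The 15 listed receptors that couple to Gs, and so raise cyclic AMP, had 12 measured members, of which 3 fell and none rose. Their median was −0.32 and became 0.17 without scaling between arrays, where that of all measured genes went from 0.10 to 0.59. *Adora2a*, the adenosine receptor best known for quieting macrophages, fell from 1129 to 528, a difference of −1.59. *Ptger4*, a receptor for prostaglandin E2, fell from 424 to 234, a difference of −1.35, and *Adora2b* from 653 to 404, a difference of −1.18. The second *Adora2b* probe gave −0.23, so that its probes disagreed on the limit. On the brightest probes the highest value was 0.47, for the β-adrenergic receptor gene *Adrb1*. A dimmer *Vipr1* probe gave 0.92, where the brightest gave 0.41. The other prostaglandin E2 receptor gene of the list, *Ptger2*, lay at −0.24.

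Of the 9 measured receptors that couple to Gi, and so lower cyclic AMP, 2 fell and 1 rose. *Gpr84*, a receptor for medium-chain fatty acids that inflammatory stimuli induce, fell from 2545 to 470, a difference of −2.92, and *S1pr1*, a receptor for sphingosine 1-phosphate, from 2157 to 821, a difference of −1.88. *P2ry12*, an ADP receptor of platelets and microglia, rose from 67.3 to 391, a difference of 2.05. With normexp its difference was smaller, at 1.33. *Hcar2*, a receptor for nicotinic acid and ketone bodies, lay at 0.10 on its brightest probe, but its other probe read 93.9 in vehicle and 33.6 in IR-61, a difference of −1.97. *Gpr84* and *Pde4b* were the listed genes with the lowest differences. Among the 9 G protein α subunit genes, *Gnas* (−0.27) and *Gnai2* (−0.01) lay near 0, and *Gnal* rose by 1.16 on its brightest probe, which its second probe, at −0.14, did not show.

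Among the other adenylyl cyclase genes 6 of 9 were measured and *Adcy10*, the soluble bicarbonate-activated cyclase, was the only member past the limit. It read 19.7 in vehicle and 60.8 in IR-61, a difference of 1.14, but another of its probes gave −0.99, so that its direction depends on the probe. *Adcy6*, *Adcy9* and *Adcy4* lay at 0.37, 0.12 and −0.13. Of the 8 other phosphodiesterase genes with cyclic AMP activity, none passed the limit. On the brightest probes they ranged from −0.37 for the dim *Pde10a* to 0.54 for *Pde7b*, with a median of 0.24. The *Pde1c* probes disagreed in sign, at −0.33 on the brightest and 0.99 on a dimmer one. *Pde4b* was therefore the only gene past the limit among the phosphodiesterase genes with cyclic AMP activity.

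Downstream, none of the 9 protein kinase A genes passed the limit. The catalytic subunit gene *Prkaca* lay at −0.14 and the regulatory subunit genes *Prkar1a* at 0.00, *Prkar2a* at −0.54 and *Prkar2b* at 0.71, where other *Prkar2b* probes gave 0.02 and −0.42. None of the 11 measured genes of A-kinase anchoring proteins, which hold the kinase near its targets, passed it either, with a range from −0.51 for *Akap12* to 0.93 for *Akap1*, whose second probe gave 0.10. *Akap13* lay at −0.09 on its brightest probe, while its other probes gave −1.17, past the limit, and −0.35. The 3 measured genes of Epac and Rap1 lay between −0.16 for *Rap1a* and 0.51 for *Rapgef3*, the gene of an Epac protein. The 10 genes of CREB, its coactivators and the SIK kinases lay between −0.54 and 0.90 on their brightest probes. The lowest was the histone acetyltransferase gene *Crebbp* and the highest the CREB relative *Atf1*, whose second probe gave 0.09. *Creb1* lay at −0.01 on its brightest probe, while its second read 64.3 in vehicle and 169 in IR-61, a difference of 0.91. None of 6 genes of PDE4 scaffolds and cyclic AMP export passed the limit. The β-arrestin genes *Arrb2* and *Arrb1* lay at −0.75 and 0.54 and the export pump gene *Abcc4* at 0.37.

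Of the 12 measured genes that CREB is known to induce, 3 fell and none rose. *Fos* fell from 3731 to 1427, a difference of −1.87, *Junb* from 735 to 316, a difference of −1.71, and *Nr4a1* from 1264 to 870, a difference of −1.03. All 3 are immediate early genes that answer to many stimuli besides cyclic AMP. *Odc1*, the enzyme of polyamine synthesis, lay at −0.85 on its brightest probe, but another probe read 1628 in vehicle and 623 in IR-61, a difference of −1.88 that was past the limit, and the remaining one gave −0.71. The other 9 genes, *Odc1* included, lay between −0.85 and 0.80 for *Ppargc1a*, the coactivator of mitochondrial biogenesis, with *Egr1* at 0.44, *Per1* at 0.47, *Dusp1* at −0.20 and *Il10* at 0.08. The list as a whole had a median of −0.25, which became 0.24 without scaling between arrays. The median of all measured genes went from 0.10 to 0.59 with the same change.

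**Figure D3:**
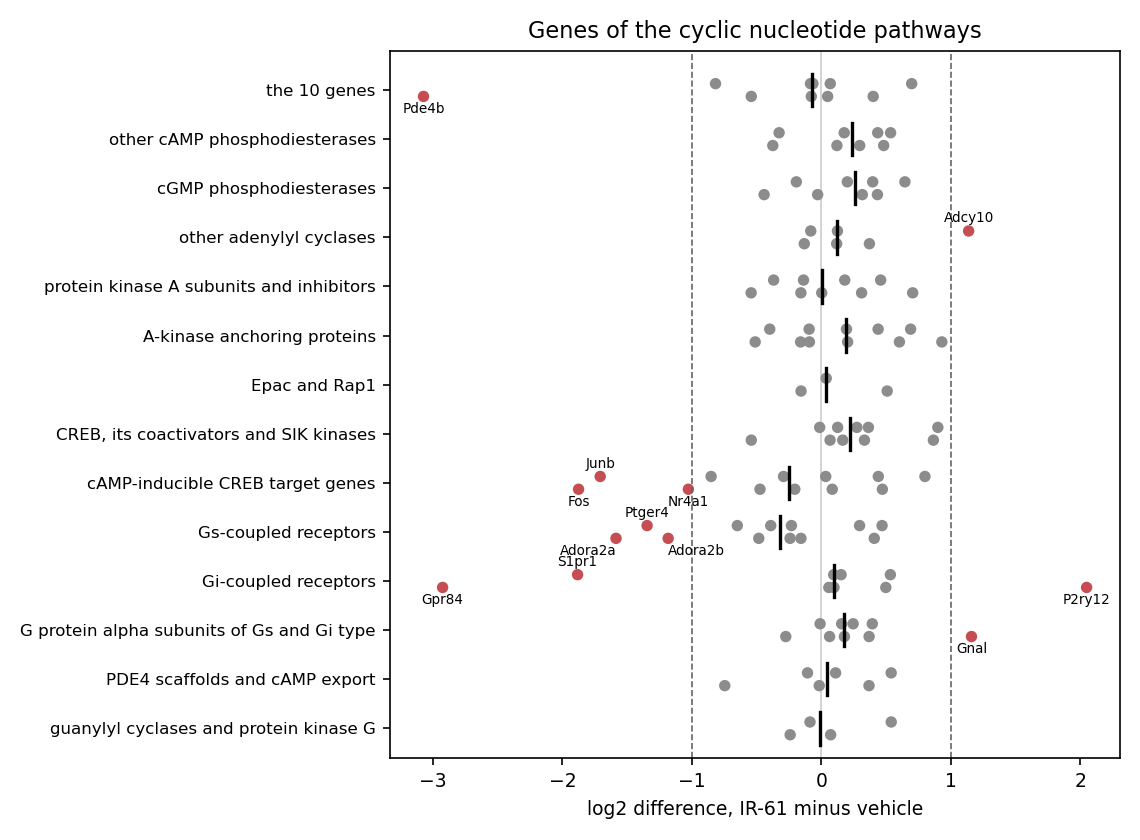
Log2 difference, IR-61 minus vehicle, of each measured gene (points) in the set of 10 and in 13 lists of cyclic nucleotide genes, with the median of each list as a black bar and the 2-fold limits dashed. Red points are past the limit, 8 lower and 3 higher in the lists besides *Pde4b*, and each gene is read from its brightest probe.

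The difference of *Pde4b* held its direction and its side of the limit in all 12 settings of scaling, background and filter, from −3.22 with the mean over its probes to −2.58 without scaling between arrays. The small differences of other members were less settled. *Pde4d* was below 0 in 5 of 11 alternatives, down to −0.13, *Pde7a* and *Crem* changed sign in 2 each, and *Pde4c* and *Adcy7* in 1, without scaling, where they lay at 0.42 and 0.41. *Pde1b* passed the limit only without scaling, at 1.19. *Pde3b* ranged from −0.90 to −0.33, *Pde8a* from −0.62 to −0.05 and *Pde4a* from 0.32 to 0.89, and these kept their sign in all 12.

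**Figure D4:**
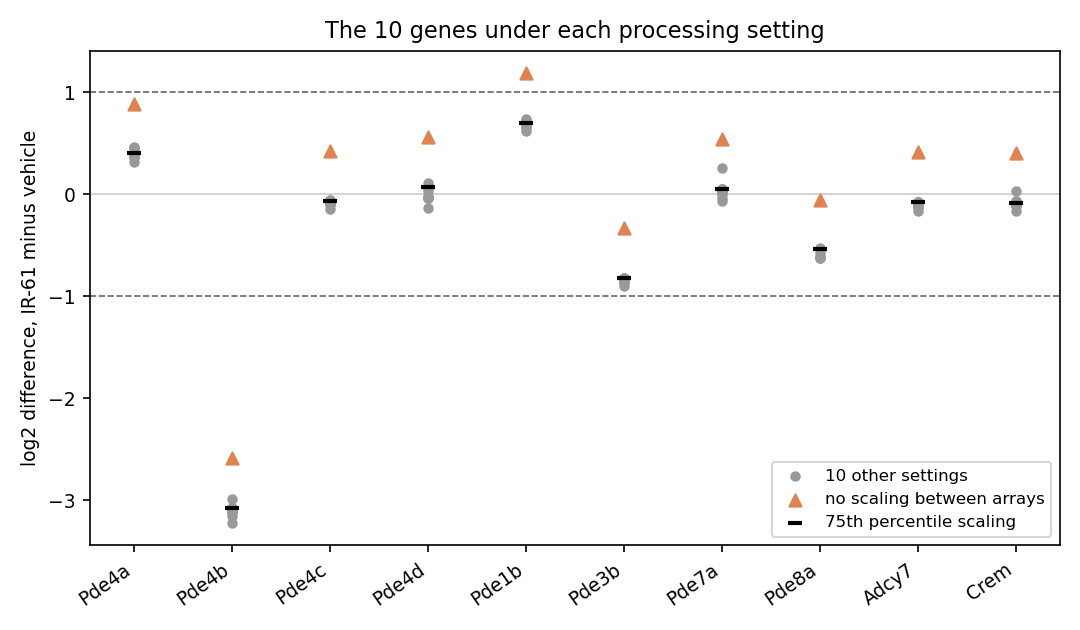
Log2 difference, IR-61 minus vehicle, of the 10 genes with 75th percentile scaling (black bars), without scaling between arrays (orange triangles) and in 10 other settings (grey points), with the 2-fold limits dashed. *Pde4b* lies below −2.58 or at it in every setting, and *Pde1b* crosses the upper limit only without scaling, where *Pde4c*, *Adcy7* and *Crem* also lie above 0.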

How the data were processed

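Expression was measured on 1 single-colour Agilent array per condition, both on the same slide and in the same scan per the file headers. The deposited scanner files hold, for each spot, the processed intensity that Feature Extraction 11.0.1.1 made by background and spatial correction (11.0.0.1 per the labels), and the authors also deposited log2 values that they had normalized. Of 44397 spots, 43020 were no controls. Spots with outlier calls (124 on vehicle, 139 on IR-61) were left out, none was saturated, and 30578 and 32013 of 39419 probes were well above background. Spots of a probe were averaged, log2 was taken and the 75th percentile of the array subtracted. Probes were named through RefSeq accessions, and 27224 had a symbol. The text names all 10 genes with every probe, and from each list the genes past 2-fold and those with the largest rise and fall. Other listed genes were picked after their values were seen. The members and lists were chosen with earlier results of these data known. With 1 array per group no test was made, and the number of arrays limits the precision. Alternatives used limma 3.58.1 in R 4.3.3, where normexp took an offset of 50, and 4 spots with local background above signal were handled by a rule chosen after seeing the data. Other steps ran in Python 3.11.15 with numpy 2.4.6 and pandas 2.3.3. The steps were tested on simulated data that held the error between spots but no spread between cultures.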

Additional observations from a re-analysis of the deposited data

How the results depend on the processing

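The count of members lower by 2-fold or more was 1 in every alternative, and 65 values of the counts and of the member median stayed within 1.5 times or within the spread, while 18 moved further. Without scaling between arrays, 1 member was higher (*Pde1b*), the members' median became 0.42, the median of all genes moved from 0.10 to 0.59, 72 genes were lower and 2156 higher in all, and 5 listed genes were lower and 15 higher. With normexp, 149 were lower and 124 higher in all and 1 listed gene was higher. With the mean over probes 1 listed gene was higher. Without the filter on dim probes, 440 were lower and 921 higher in all and 8 listed genes were higher. At a log2 intensity of at least 6, 182 were higher in all. At a 3-fold limit, 64 were lower and 50 higher in all, and 5 listed genes were lower and 1 higher. Scaling also moved the split of all genes from 235 lower and 336 higher to 259 and 291 with the percentile over detected probes, 279 and 257 with quantile scaling, 281 and 253 with loess, and 281 and 266 in the deposited log2 values. Of the listed genes, *Nr4a1* lay at −0.54 without scaling and −0.97 with normexp, and *Adora2b* at −0.69, −0.99 and, with the mean over probes, −0.71. *Ptger4* lay at −0.86 without scaling, and *Adcy10* at 0.13 with normexp and 0.07 with the mean over probes. *Gnal* lay at 0.77 with normexp and 0.51 with the mean over probes. No paired analysis was possible because only 1 sample stands for each group. The cause of these shifts was not tested. Dim probes such as the second *Pde7a* probe carry the largest error, and *Pde4b* probe 2 gave no fold at its signal.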

Other observations

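The cyclic GMP branch of the same enzyme family was read as well. None of its 8 phosphodiesterase genes passed the 2-fold limit on its brightest probe. Their range was −0.44 for *Pde6d*, the prenyl-binding chaperone that shares the family name, to 0.65 for *Pde6a*, a rod photoreceptor subunit, and the other *Pde6h* probe, at 16.5 in vehicle and 55.6 in IR-61, lay past the limit at 1.27. Their median was 0.26 and became −0.01 with normexp and −0.11 at a log2 intensity of at least 6. Of 7 genes of guanylyl cyclases and protein kinase G, 4 were measured and none passed the limit. *Gucy1a1*, a subunit of the nitric oxide receptor, lay at −0.09, the natriuretic peptide receptor gene *Npr2* at 0.07, and the kinase genes *Prkg1* and *Prkg2* at −0.24 and 0.54.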
